A study of Mus musculus with 8 samples.

Results

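The cytochrome P450 genes of families 1 to 3 were followed in mouse liver across Xbp1 genotype and diet. Members were all genes whose symbol begins with Cyp, a family number of 1, 2 or 3, a subfamily letter and a gene number, which gave 62 of 22923 symbols, 2 of them pseudogenes. They fall into 16 subfamilies, of which Cyp2c (16 genes), Cyp2d (10 genes), Cyp3a (9 genes) and Cyp2j (7 genes) have the most members.

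All mice were of the C57BL/6 strain per the labels, and livers were snap frozen before RNA extraction. The 4 groups were knockout mice (Xbp1-/-) on a high-fat diet, flox controls (Xbp1flox) on the high-fat diet, knockout mice on chow and flox controls on chow. Feeding lasted 4 weeks, and high-fructose corn syrup equivalent was part of the high-fat diet. Each cohort held 4 mice pooled into 2 libraries, and the deposited files give 1 RPKM value per gene and group, so differences carry no replicate check, no error and no test. The series' design text describes the deficiency as hepatic, while the labels used here do not give the Cre driver, sex or age, and pooling hides differences between mice.

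P450 enzymes of these families sit in the membrane of the endoplasmic reticulum (ER), bind heme and oxidise drugs, toxins, steroids and fatty acids with electrons from P450 reductase. In hepatocytes, family 1 is best known as a target of the aryl hydrocarbon receptor, and many Cyp2b, Cyp2c and Cyp3a genes as targets of the nuclear receptors CAR and PXR. The factor made from Xbp1 acts in the unfolded protein response and maintains ER folding and secretory capacity. RPKM, a read number divided by gene length and by library size, is a level per length, so levels of different genes can be set side by side.

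Xbp1 stood at 34.1 RPKM in knockout and 90.7 RPKM in flox livers on the high-fat diet, and at 44.2 RPKM in knockout and 112 RPKM in flox livers on chow. Knockout livers thus held 37.6% of the flox level on high fat and 39.6% on chow, and which part of the gene is deleted is not given in the labels used here. Liver identity showed in Ttr, the gene of transthyretin, at 2904 to 5347 RPKM over the 4 groups, although Alb, the gene of albumin, was listed at 0 in all groups, so a value of 0 may be a failed estimate. The knockout high-fat file summed to 367414 RPKM, against 461392 to 513694 RPKM in the other 3 files. Serpina1a (1858 RPKM) and Serpina1c (3004 RPKM) had values in the knockout high-fat file and were listed at 0 in the other 3. Sums of the files, and shares of those sums, are therefore not fully alike between groups. In the comparison of knockout with flox on high fat the median log2 change of all genes was -0.13. Bringing all groups to a median ratio of 0 shifted this value by 0.15. Called changes of members that involve knockout livers on high fat are therefore also given after that rescaling. For single genes and lists outside the members they are given without it, so calls near 2-fold there may depend on the scale. In bulk liver, fewer cells of a type and less RNA per cell cannot be told apart.

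Many of these genes exist as near-identical neighbours, which bears on every value below. Of 61 members matched to GENCODE M21, 51 shared at least 1 window of 50 bases with a transcript of another gene, and 5 shared more than 50% of their windows. Among pairs within a subfamily, 15 had coding sequences at least 95% identical when gaps in the alignment count as differences. The longer coding sequence of Cyp2c40 (1560 bases) kept its pairs below that line. Its aligned bases differed from those of Cyp2c68 at 28 places and of Cyp2c69 at 31. Cyp3a41a and Cyp3a41b differed at 2 of 1512 coding bases, Cyp2a4 and Cyp2a5 at 23 of 1482, Cyp2c67 and Cyp2c69 at 34 of 1473, and Cyp3a25 and Cyp3a59 at 38 of 1509. How reads that match several copies were counted, and how long the reads were, is not given in the sources used here.

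The pair with the greatest contrast in these data is Cyp2a4 and Cyp2a5, on chromosome 7 (Cyp2a4 at chr7:26307169-26315088 and Cyp2a5 at chr7:26835305-26843548, both plus strand, GENCODE M21 on GRCm38, the assembly mm10 denotes). Their coding sequences are shown where they differ most, at coding bases 580 to 669 counted from the first base of the start codon, because only reads over such bases can separate them. Capitals mark the 5 bases of this stretch that differ.
Cyp2a4: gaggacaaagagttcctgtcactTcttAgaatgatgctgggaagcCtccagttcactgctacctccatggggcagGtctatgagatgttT
Cyp2a5: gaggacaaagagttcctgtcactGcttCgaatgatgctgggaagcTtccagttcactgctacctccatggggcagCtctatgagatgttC
The longest coding run without a difference between them was 216 bases. Of the 50-base windows of the Cyp2a4 transcript, 36.1% also occurred in Cyp2a5.

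The 250 bases upstream of their RefSeq starts (build GRCm38.p6) were also nearly alike, with 245 aligned bases identical and 4 different. Both stretches run past the GENCODE M21 starts given above. They are shown because the 2 genes differed in how their RNA levels moved, and capitals again mark bases that differ or that have no partner in the other gene, at chr7:26306942-26307191 for Cyp2a4 and chr7:26835089-26835338 for Cyp2a5, plus strand.
Cyp2a4: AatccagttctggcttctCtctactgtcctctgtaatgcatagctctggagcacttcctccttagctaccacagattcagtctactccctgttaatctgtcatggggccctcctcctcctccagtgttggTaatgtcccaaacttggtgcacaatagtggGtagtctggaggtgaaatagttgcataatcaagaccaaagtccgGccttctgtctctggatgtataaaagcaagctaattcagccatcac
Cyp2a5: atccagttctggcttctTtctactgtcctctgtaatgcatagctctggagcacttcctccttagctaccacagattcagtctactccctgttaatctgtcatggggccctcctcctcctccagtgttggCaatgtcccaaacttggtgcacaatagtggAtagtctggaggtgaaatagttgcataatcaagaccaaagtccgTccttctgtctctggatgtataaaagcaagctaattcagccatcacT

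Within the family, levels ran over several orders of magnitude. In 4 members (Cyp2b23, Cyp2j11, Cyp2j12 and Cyp2w1) every group was listed at 0, and 19 others stayed under 1 RPKM in all groups, the highest of them Cyp2c53-ps with 0.718 RPKM in flox livers on high fat. That leaves 39 members with at least 1 RPKM in at least 1 group, the filter used for all changes below. A low gene can pass through the group in which it is high, so counts over the 39 describe them and are not evidence about the 62. The low genes include Cyp1a1, the classic inducible target of the aryl hydrocarbon receptor, at 0.321 RPKM in knockout and 0.209 RPKM in flox livers on high fat and at 0.332 RPKM in knockout and 0.230 RPKM in flox livers on chow. Cyp3a16, Cyp3a41a, Cyp3a41b and Cyp3a44, known as female-biased genes of mouse liver, were also below 1 RPKM in all 4 groups, as were Cyp1b1, Cyp2s1 and Cyp2t4.

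At the other end, 9 members reached 500 RPKM in at least 1 group, and the highest was Cyp2e1, which oxidises ethanol and small toxins, with 5287 RPKM in flox livers on high fat. By its mean over the 4 groups Cyp2e1 ranked 16th among all genes in the files. Members summed to 8428 RPKM in knockout and 14318 RPKM in flox livers on high fat, and to 11481 RPKM in knockout and 15132 RPKM in flox livers on chow. The knockout sum was thus 58.9% of the flox sum on high fat and 75.9% on chow. As a share of the whole file the members held 2.29% in knockout and 3.10% in flox livers on high fat, and 2.49% in knockout and 2.95% in flox livers on chow.

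**Figure D1:**
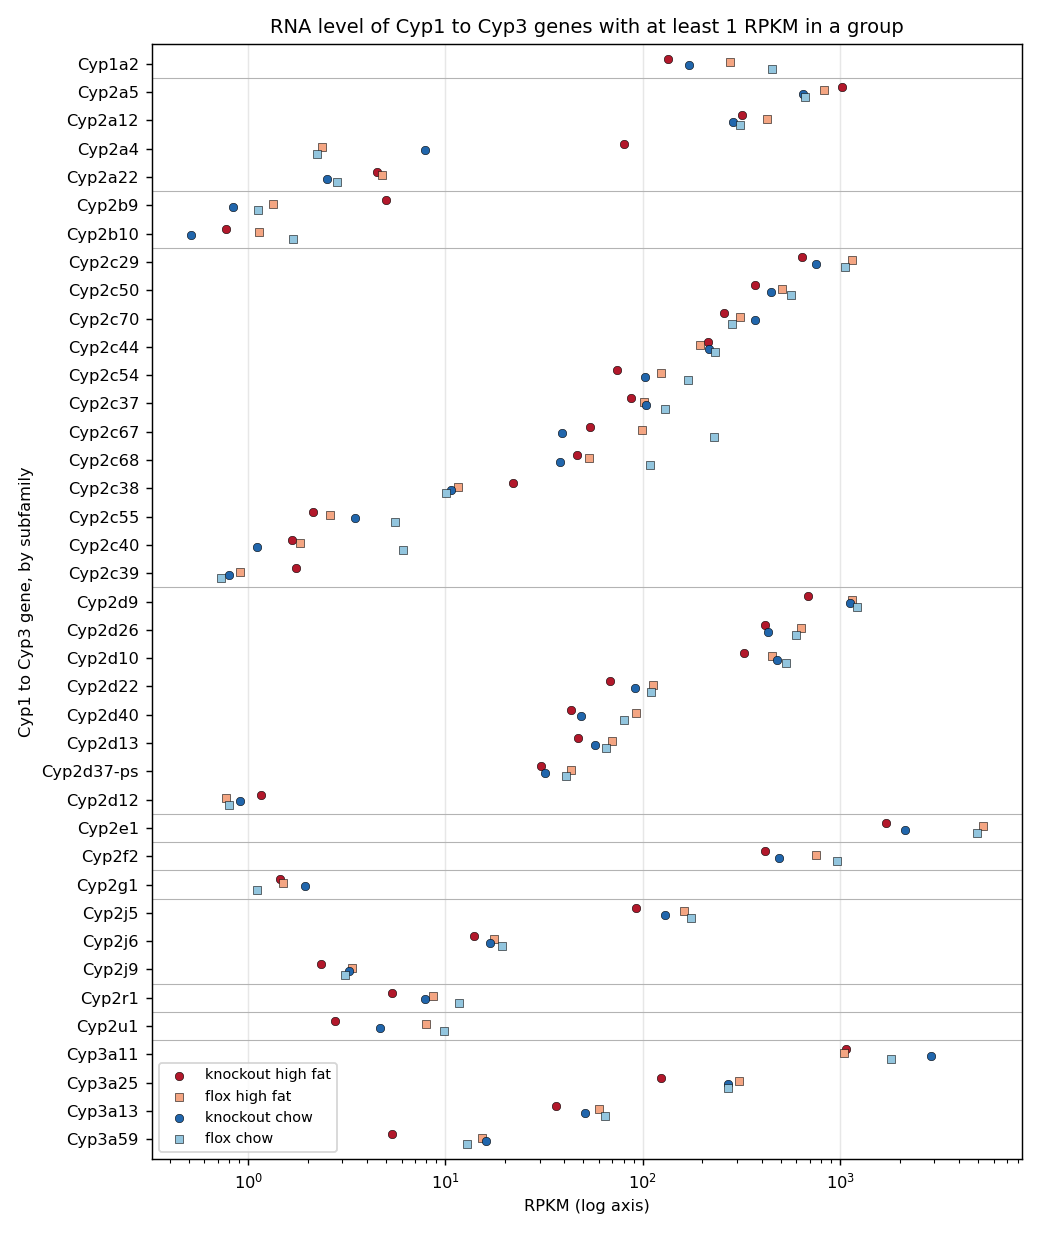
RNA level of the 39 Cyp1 to Cyp3 genes that reached 1 RPKM in at least 1 group, on a log axis in RPKM, with 1 point per gene and group and genes ordered by subfamily and mean level. Circles are knockout and squares flox livers, and Cyp2a4 has its knockout high-fat point (80.3 RPKM) far to the right of its other 3 points (2.24 to 7.87 RPKM).

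**Figure D2:**
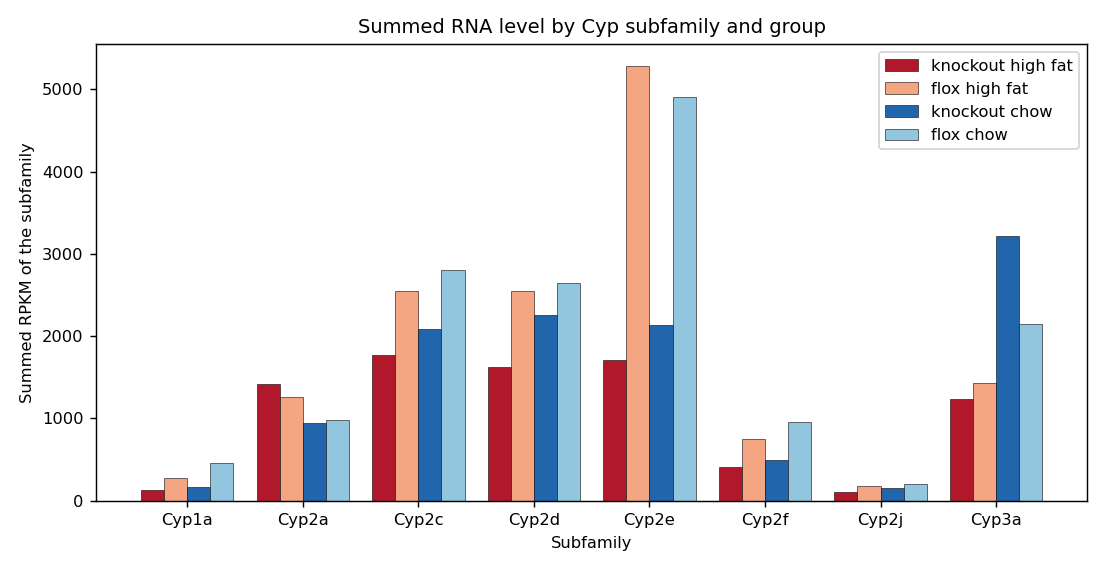
Summed RPKM of 8 Cyp subfamilies in the 4 groups, with bars from 0 and no error bars because each group has 1 value. The Cyp2e bar, a single gene, is lower in both knockout groups (1707 and 2138 RPKM) than in both flox groups (5287 and 4912 RPKM), and the Cyp3a bar is highest in knockout livers on chow (3218 RPKM).

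A change is the log2 ratio of 2 groups after 1 RPKM is added to each, and rose or fell is used of members past 2-fold on that scale. Between knockout and flox livers on the high-fat diet, 2 of 39 members rose and 6 fell, while 1.07% of all genes rose and 1.86% fell. The members that rose were Cyp2a4 and Cyp2b9, and those that fell were Cyp2e1, Cyp3a59, Cyp3a25, Cyp2u1, Cyp2d40 and Cyp1a2. On chow, 1 of 39 rose and 5 fell, while 0.252% of all genes rose and 1.37% fell. There Cyp2a4 rose, and Cyp2c67, Cyp2c40, Cyp2c68, Cyp1a2 and Cyp2e1 fell. After rescaling, either to a median log2 ratio of 0 or to equal sums without the 50 most abundant genes, 3 members rose and 4 fell on high fat. Of all genes, 1.42% rose and 1.13% fell after the median rescaling, and 1.94% rose and 0.883% fell after the rescaling of sums. Among genes with a mean of at least 50 RPKM, 0 of 23 members rose and 4 fell on high fat, while 1.08% of all such genes rose and 7.41% fell. On chow 0 of these 23 members rose and 4 fell, while 0.271% of all such genes rose and 5.24% fell.

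The median change of the 39 members was -0.45 on high fat, beside -0.13 for all genes, and -0.27 on chow, beside -0.02 for all genes. Among genes with a mean of at least 50 RPKM, the median of the 23 members was -0.71 on high fat, beside -0.36 for all such genes, and -0.32 on chow, beside -0.08. On high fat 31 of the 39 members (79.5%) lay below 0, as did 70.1% of all genes and 84.9% of those with a mean of at least 50 RPKM. On chow 30 members (76.9%) lay below 0, as did 54.2% of all genes and 66.2% of those with a mean of at least 50 RPKM. After rescaling to a median ratio of 0 the members' median was -0.27 on high fat and -0.24 on chow. The 24 tested genes of the other Cyp families had medians of -0.14 on high fat, with 4 rises and 1 fall, and of -0.13 on chow, with 0 rises and 2 falls. The 17 tested Ugt and Sult genes, which encode the conjugating enzymes that act on many P450 products, had medians of -0.44 on high fat (0 rises, 2 falls) and -0.14 on chow (0 rises, 0 falls).

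Markers of cholangiocytes and progenitors, macrophages, stellate cells and lymphocytes had higher sums in knockout than in flox livers on high fat. The endothelial and blood lists did not. Cholangiocyte and progenitor markers had 4 rises among 9 tested there and summed to 127 RPKM in knockout and 30.7 RPKM in flox livers, and on chow they had 0 rises and summed to 52.9 RPKM in knockout and 29.4 RPKM in flox livers. Most of that sum was Spp1, the gene of osteopontin, at 103 RPKM in knockout and 20.6 RPKM in flox livers on high fat, and Epcam, Cd24a and Tspan8 were at most 6.00 RPKM in any group. Macrophage markers (2 of 14 rose) summed to 487 RPKM in knockout and 345 RPKM in flox livers on high fat and to 303 RPKM in both on chow, and stellate markers (2 of 12 rose) to 196 RPKM in knockout and 116 RPKM in flox livers on high fat and to 146 RPKM in knockout and 116 RPKM in flox livers on chow. Endothelial markers had 0 rises among 12 and sums of 128 to 135 RPKM over the 4 groups. Lymphocyte markers had 0 rises among 3 tested and sums of 5.57 to 8.09 RPKM, and 1 of 9 listed blood genes was tested and did not pass 2-fold between genotypes. The blood genes summed to 37.5 RPKM in knockout and 61.0 RPKM in flox livers on high fat. Of all genes, 1.07% rose and 1.86% fell on high fat, and 0.252% rose and 1.37% fell on chow. Of the listed hepatocyte genes, 12 were tested with 3 falls on high fat (median -0.50) and 0 on chow (median -0.29). Of 8 kidney and intestine genes, 1 passed the filter, Fabp2, which fell on both diets. Umod, Slc12a1, Kap, Aqp2 and Sis of that list were listed at 0 in at least 1 group of each comparison. The part of these markers' cells in the P450 changes was not tested.

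**Figure D3:**
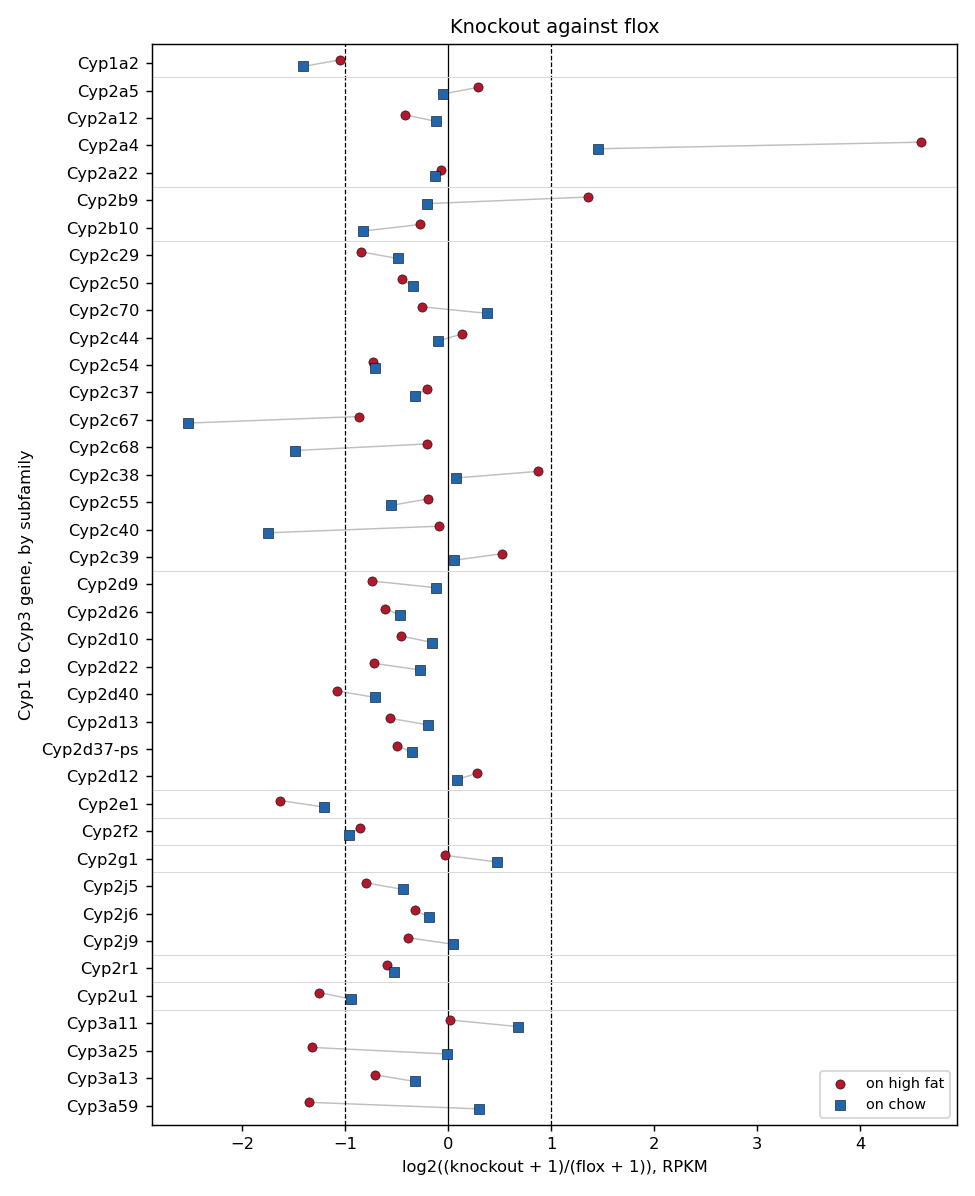
log2 change between knockout and flox livers for the 39 members, with red circles for the high-fat diet and blue squares for chow, dashed lines at 2-fold and 1 value per gene and diet. Most points lie left of 0, Cyp2a4 lies right of the dashed line on both diets (4.59 and 1.45), and Cyp2c67, Cyp2c40 and Cyp2c68 lie left of it on chow only (-2.52, -1.75 and -1.49).

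Cyp2e1 and Cyp1a2 were lower in knockout livers on both diets. Cyp2e1 (chr7:140763739-140774987, plus strand) stood at 1707 RPKM in knockout and 5287 RPKM in flox livers on high fat, and at 2138 RPKM in knockout and 4912 RPKM in flox livers on chow. Both knockout values lie below both flox values, and the log2 changes were -1.63 on high fat (-1.45 after median rescaling) and -1.20 on chow. It remained the most abundant member except in knockout livers on chow, where Cyp3a11 stood above it. Cyp1a2 (chr9:57676937-57683703, minus strand), an enzyme of caffeine and aromatic amine oxidation, stood at 133 RPKM in knockout and 278 RPKM in flox livers on high fat, and at 170 RPKM in knockout and 453 RPKM in flox livers on chow. Its changes were -1.05 on high fat and -1.41 on chow, and after median rescaling the high-fat change was inside 2-fold at -0.87. Few windows of either transcript occurred in another gene (4.76% for Cyp2e1 and 4.97% for Cyp1a2).

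The Cyp2e1 promoter is printed because this gene was the most abundant member in 3 of 4 groups and fell in both comparisons (chr7:140763569-140763818, plus strand, GRCm38.p6). This RefSeq window runs past the GENCODE M21 start of the gene (140763739), and the capitals below lie beyond that start. Capitals mark adjoining letter matches, ACGTG on the minus strand (printed as its reverse complement) and TATAAA, which begins right after it. ACGTG is a core read by XBP1 and by other basic leucine zipper and helix-loop-helix factors.
Cyp2e1: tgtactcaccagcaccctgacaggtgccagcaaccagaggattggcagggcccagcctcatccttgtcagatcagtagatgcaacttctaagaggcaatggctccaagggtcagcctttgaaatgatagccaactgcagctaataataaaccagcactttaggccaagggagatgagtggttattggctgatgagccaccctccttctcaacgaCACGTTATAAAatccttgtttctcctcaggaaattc
Promoter windows of 250 upstream bases were found for 52 member symbols (55 windows) and searched on both strands beside all 32851 windows. ACGTG was in 2 of 55 member windows (Cyp2e1 and Cyp2j6) and in 16.6% of all windows. The longer UPRE TGACGTGG, which contains ACGTG, was in 0 member windows and 0.563% of all, and the ER stress elements ERSE (CCAAT and CCACG with 9 bases between them) and ERSE-II (ATTGG and CCACG with 1 base between them) in 0 member windows and in 0.113% and 0.0304% of all. TATAAA was in 25 of 55 member windows and 12.4% of all, GCGTG, the core of the aryl hydrocarbon receptor site, in 9 of 55 and 28.2% of all, and the repeat of AGGTCA after 4 bases, a CAR and PXR type element, in 0 and 0.0152% of all. These are matches of letters in a short window and were not tested for binding.

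Cyp2f2 and Cyp2u1 also had lower values in knockout livers on both diets. Cyp2f2, a periportal gene known for naphthalene activation, stood at 415 RPKM in knockout and 754 RPKM in flox livers on high fat, and at 492 RPKM in knockout and 961 RPKM in flox livers on chow. Its changes of -0.86 and -0.96 stayed inside 2-fold on both diets. Cyp2u1, a fatty acid hydroxylase gene of low level, stood at 2.75 RPKM in knockout and 7.93 RPKM in flox livers on high fat, and at 4.64 RPKM in knockout and 9.80 RPKM in flox livers on chow. It fell on high fat (-1.25, or -1.12 after median rescaling) and had a change of -0.94 on chow. Cyp2r1, which hydroxylates vitamin D, had changes of -0.59 on high fat and -0.52 on chow. Its level was 5.38 RPKM in knockout and 8.62 RPKM in flox livers on high fat, and 7.89 RPKM in knockout and 11.8 RPKM in flox livers on chow. Cyp2g1, best known from olfactory tissue, stood between 1.10 and 1.93 RPKM in the 4 groups and did not pass 2-fold.

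Cyp2a4 rose on both diets and had the highest knockout change of any member. It encodes a female-biased steroid hydroxylase of mouse liver. Its level was 80.3 RPKM in knockout and 2.38 RPKM in flox livers on high fat, and 7.87 RPKM in knockout and 2.24 RPKM in flox livers on chow. The flox values were nearly equal on both diets, and the knockout value on high fat was 33.8 times that of flox livers. The log2 changes were 4.59 on high fat (4.77 after median rescaling) and 1.45 on chow.

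Its near copy Cyp2a5, the coumarin hydroxylase and the most abundant Cyp2a gene, changed by less than 2-fold with genotype. It stood at 1016 RPKM in knockout and 829 RPKM in flox livers on high fat, and at 646 RPKM in knockout and 667 RPKM in flox livers on chow. The changes were 0.29 and -0.05. Cyp2a4 made up 7.32% of the summed level of both genes in knockout and 0.286% in flox livers on high fat, and 1.21% in knockout and 0.335% in flox livers on chow. Whether reads of Cyp2a5 were counted for Cyp2a4 was not tested. Cyp2a12, a bile acid hydroxylase gene, stood at 319 RPKM in knockout and 427 RPKM in flox livers on high fat, and at 288 RPKM in knockout and 312 RPKM in flox livers on chow. It had changes of -0.42 on high fat and -0.12 on chow, and its neighbour Cyp2a22, under 5 RPKM in all groups, of -0.07 (0.08 after median rescaling) and -0.13.

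The Cyp2b genes, which are the classic CAR targets, were at low levels in all groups. Cyp2b9, a female-biased gene, rose on high fat with 4.99 RPKM in knockout and 1.34 RPKM in flox livers (1.36, or 1.52 after median rescaling), whereas on chow it had 0.836 RPKM in knockout and 1.12 RPKM in flox livers. Only its knockout value on high fat stood apart from the other groups. Cyp2b10, the gene by which CAR activity in mouse liver is usually read, had 0.770 RPKM in knockout and 1.13 RPKM in flox livers on high fat, and 0.515 RPKM in knockout and 1.68 RPKM in flox livers on chow. Cyp2b13, Cyp2b19 and Cyp2b23 stayed below 1 RPKM.

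Of 12 Cyp2c genes past the filter, 0 rose and 3 fell on chow, and none of the 12 passed 2-fold on high fat. The 3 that fell lie next to each other on chromosome 19, all on the minus strand, in the order Cyp2c67 (chr19:39608842-39649051), Cyp2c68 (chr19:39688834-39741054) and Cyp2c40 (chr19:39767071-39812814), followed by Cyp2c69 (chr19:39842814-39886799), which was under 1 RPKM in all groups (0.413 RPKM in knockout and 0.269 RPKM in flox livers on high fat, and 0.202 RPKM in knockout and 0.673 RPKM in flox livers on chow). The 3 genes that fell are close copies, and 52.8%, 43.3% and 72.1% of their 50-base windows occurred in another gene, and how far their values share reads was not tested. The upstream sequence that the 3 genes have in common is shown because their RNA levels moved together (GRCm38.p6, minus strand, chr19:39649123-39649292 for Cyp2c67, chr19:39741134-39741304 for Cyp2c68 and chr19:39812815-39812984 for Cyp2c40). Capitals mark bases that differ from Cyp2c67 or have no partner in it.
Cyp2c67: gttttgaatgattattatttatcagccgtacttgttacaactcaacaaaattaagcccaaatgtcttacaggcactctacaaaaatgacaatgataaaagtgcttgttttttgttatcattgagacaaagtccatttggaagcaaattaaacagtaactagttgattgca
Cyp2c68: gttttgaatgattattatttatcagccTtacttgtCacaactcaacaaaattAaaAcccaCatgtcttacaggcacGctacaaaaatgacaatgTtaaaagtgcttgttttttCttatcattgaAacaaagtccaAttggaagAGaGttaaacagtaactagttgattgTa
Cyp2c40: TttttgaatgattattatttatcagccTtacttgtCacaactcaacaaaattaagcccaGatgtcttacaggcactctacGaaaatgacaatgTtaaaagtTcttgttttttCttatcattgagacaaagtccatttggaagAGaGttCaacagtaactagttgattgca
In this stretch Cyp2c67 was 91.8% identical to Cyp2c68 and 92.9% identical to Cyp2c40.

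Cyp2c67 stood at 54.0 RPKM in knockout and 98.9 RPKM in flox livers on high fat, and at 39.0 RPKM in knockout and 229 RPKM in flox livers on chow. Cyp2c68 stood at 46.2 RPKM in knockout and 53.4 RPKM in flox livers on high fat, and at 38.0 RPKM in knockout and 108 RPKM in flox livers on chow. Cyp2c40 stood at 1.66 RPKM in knockout and 1.83 RPKM in flox livers on high fat, and at 1.11 RPKM in knockout and 6.11 RPKM in flox livers on chow. In all 3 genes the flox value on chow stood above the other 3 groups. The knockout changes on chow were -2.52, -1.49 and -1.75, and those on high fat were -0.86, -0.21 and -0.09. The high-fat changes of Cyp2c68 and Cyp2c40 turned positive after rescaling without the 50 most abundant genes (0.10 and 0.11), and that of Cyp2c40 also after median rescaling (0.03).

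The other Cyp2c genes past the filter changed by less than 2-fold between genotypes. Cyp2c29, an inducible gene and the most abundant Cyp2c member, stood at 639 RPKM in knockout and 1144 RPKM in flox livers on high fat, and at 756 RPKM in knockout and 1060 RPKM in flox livers on chow (changes of -0.84 and -0.49). Cyp2c50, Cyp2c54 and Cyp2c37 are neighbours of similar sequence. Cyp2c50 stood at 370 RPKM in knockout and 506 RPKM in flox livers on high fat, and at 447 RPKM in knockout and 565 RPKM in flox livers on chow. Cyp2c54 stood at 74.0 RPKM in knockout and 123.1 RPKM in flox livers on high fat, and at 103 RPKM in knockout and 169 RPKM in flox livers on chow. Cyp2c37 stood at 87.6 RPKM in knockout and 101 RPKM in flox livers on high fat, and at 104 RPKM in knockout and 130 RPKM in flox livers on chow. In all 3 the knockout value was below the flox value on each diet, with changes of -0.45, -0.73 and -0.21 on high fat and of -0.34, -0.71 and -0.32 on chow. The high-fat change of Cyp2c37 turned positive (0.10) after rescaling without the 50 most abundant genes.

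Cyp2c70, which makes the muricholic acids of mouse bile, stood at 259 RPKM in knockout and 309 RPKM in flox livers on high fat, and at 370 RPKM in knockout and 284 RPKM in flox livers on chow. The changes were -0.26 on high fat, which turned to 0.05 after rescaling without the 50 most abundant genes, and 0.38 on chow. Cyp2c44, an arachidonic acid epoxygenase gene that lies apart from the cluster, stood at 214 RPKM in knockout and 195 RPKM in flox livers on high fat, and at 216 RPKM in knockout and 231 RPKM in flox livers on chow. Its 4 values were close together. Cyp2c55 (2.14 to 5.57 RPKM) and Cyp2c39 (0.725 to 1.75 RPKM) were low in all groups. Cyp2c38 had 22.1 RPKM in knockout livers on high fat, against 11.6 RPKM in flox livers on that diet, and its change of 0.87 passed 2-fold after median rescaling (1.05).

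**Figure D4:**
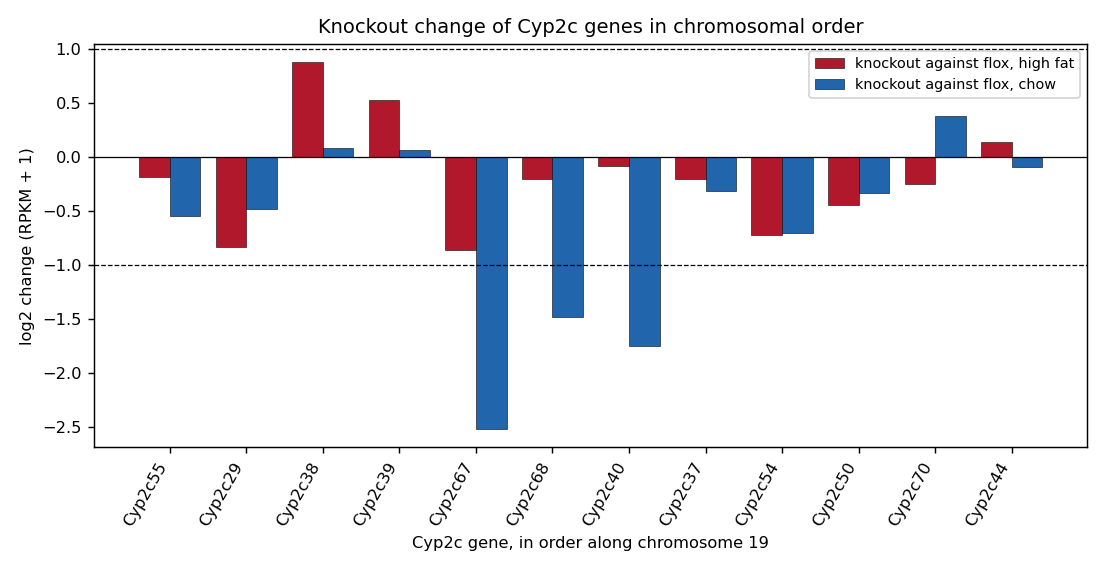
log2 knockout change of the 12 Cyp2c genes past the filter, in their order along chromosome 19, with red bars for high fat, blue bars for chow and dashed lines at 2-fold. The 3 adjacent genes Cyp2c67, Cyp2c68 and Cyp2c40 have blue bars beyond the lower dashed line, while their red bars lie between -0.86 and -0.09.

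Among 8 Cyp2d genes past the filter, 0 rose on either diet, and 1 fell on high fat and 0 on chow. The gene that fell, Cyp2d40, had 43.3 RPKM in knockout and 92.7 RPKM in flox livers on high fat (-1.08, or -0.91 after median rescaling, inside 2-fold), and 48.7 RPKM in knockout and 80.3 RPKM in flox livers on chow (-0.71). Cyp2d9, a male-biased steroid hydroxylase gene and the most abundant Cyp2d member, stood at 690 RPKM in knockout and 1147 RPKM in flox livers on high fat, and at 1123 RPKM in knockout and 1219 RPKM in flox livers on chow. Its knockout value on high fat was the lowest of the 4, with a change of -0.73, against -0.12 on chow. Cyp2d26 stood at 414 RPKM in knockout and 633 RPKM in flox livers on high fat, and at 431 RPKM in knockout and 595 RPKM in flox livers on chow. Cyp2d10 stood at 328 RPKM in knockout and 451 RPKM in flox livers on high fat, and at 479 RPKM in knockout and 532 RPKM in flox livers on chow. In both genes, as in Cyp2d9, the knockout value on high fat was the lowest. For Cyp2d26 this depended on the scale, as its change with the diet in knockout livers, -0.05, turned to 0.12 after median rescaling. Cyp2d22 stood at 68.3 RPKM in knockout and 113 RPKM in flox livers on high fat, and at 91.3 RPKM in knockout and 110 RPKM in flox livers on chow. Cyp2d13 stood at 46.8 RPKM in knockout and 69.8 RPKM in flox livers on high fat, and at 56.9 RPKM in knockout and 65.4 RPKM in flox livers on chow. Cyp2d10, Cyp2d13, Cyp2d22, Cyp2d26 and the pseudogene Cyp2d37-ps had changes between -0.72 and -0.46 on high fat and between -0.47 and -0.15 on chow.

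The Cyp2j genes encode epoxygenases of arachidonic acid and had a lower sum in knockout livers on both diets. Cyp2j5, the main member in liver, stood at 92.6 RPKM in knockout and 161 RPKM in flox livers on high fat, and at 130 RPKM in knockout and 176 RPKM in flox livers on chow. The changes were -0.79 and -0.44. The sum of the subfamily was 109 RPKM in knockout and 182 RPKM in flox livers on high fat. Cyp2j6 had changes of -0.32 and -0.18, and Cyp2j9 of -0.39 and 0.05. The other 4 Cyp2j genes stayed below 1 RPKM.

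The Cyp3a genes are the main drug-oxidising family of liver, and their sum was 1233 RPKM in knockout and 1434 RPKM in flox livers on high fat, and 3218 RPKM in knockout and 2153 RPKM in flox livers on chow. The high-fat change of the sum, -0.22, turned to 0.09 after rescaling without the 50 most abundant genes. Cyp3a11, the main PXR target of mouse liver, stood at 1067 RPKM in knockout and 1050 RPKM in flox livers on high fat, and at 2880 RPKM in knockout and 1804 RPKM in flox livers on chow. Both high-fat values lie below both chow values, and the knockout changes were 0.02 on high fat and 0.67 on chow. Its closest copy by coding sequence, Cyp3a41a, had 0.311 RPKM in knockout and 0.0348 RPKM in flox livers on high fat, and 0.148 RPKM in knockout and 0.0378 RPKM in flox livers on chow. Cyp3a25 (chr5:145977194-146009618, minus strand) stood at 123.1 RPKM in knockout and 309 RPKM in flox livers on high fat, and at 270 RPKM in knockout and 272 RPKM in flox livers on chow. It fell on high fat (-1.32, or -1.14 after median rescaling) and had a change of -0.01 on chow.

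Cyp3a59 (chr5:146079257-146113287, plus strand), the close copy of Cyp3a25, was also lowest in knockout livers on high fat, at a lower level. It stood at 5.36 RPKM in knockout and 15.2 RPKM in flox livers on high fat, and at 16.1 RPKM in knockout and 12.8 RPKM in flox livers on chow. The change on high fat was -1.35 (-1.20 after median rescaling) and that on chow 0.30. Of its 50-base windows, 24.7% also occurred in Cyp3a25, and Cyp3a59 held between 4.18% and 5.61% of the summed level of both genes in the 4 groups. Cyp3a13 stood at 36.4 RPKM in knockout and 60.2 RPKM in flox livers on high fat, and at 51.2 RPKM in knockout and 64.3 RPKM in flox livers on chow, with changes of -0.71 on high fat and -0.32 on chow.

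The difference of both knockout changes, high fat minus chow, reached 1 in size in 7 of 39 members. It was 3.14 for Cyp2a4, 1.66 for Cyp2c40 and for Cyp2c67, 1.56 for Cyp2b9 and 1.28 for Cyp2c68, that is at least 1 in 5 members, as in 0.659% of all genes. At -1.66 for Cyp3a59 and -1.31 for Cyp3a25 it was at most -1 in 2 members, as in 0.572% of all genes. These differences were not tested, because each group has 1 value.

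Within a genotype, the members past 2-fold with the high-fat diet were all among those past it between genotypes, except Cyp3a11. In knockout livers 2 of 39 rose with the diet and 3 fell, while 0.668% of all genes rose and 0.794% fell. Cyp2a4 (3.20, or 3.37 after median rescaling) and Cyp2b9 (1.71, or 1.87) rose, and Cyp3a11 (-1.43, or -1.25), Cyp3a59 (-1.42, or -1.27) and Cyp3a25 (-1.13, or -0.95, inside 2-fold) fell, so all 3 falls were Cyp3a genes. After either rescaling 3 rose, with Cyp2c38 added, and 2 fell, while of all genes 1.01% rose and 0.552% fell after the median rescaling, and 1.43% rose and 0.446% fell after the rescaling of sums. In flox livers 0 of 39 rose and 3 fell, while 0.213% of all genes rose and 0.426% fell. The 3 that fell were Cyp2c40 (-1.33), Cyp2c67 (-1.20) and Cyp2c68 (-1.003), the last of them inside 2-fold after median rescaling (-0.98). Cyp3a11 and Cyp1a2 had changes of -0.78 and -0.71 in flox livers. Among the 23 members with a mean of at least 50 RPKM, 0 rose and 2 fell in knockout livers, while 1.26% of all such genes rose and 3.97% fell, and 0 rose and 2 fell in flox livers, while 0.271% of all such genes rose and 1.27% fell. These comparisons share their groups with the genotype comparisons, so they are the same values read the other way.

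All 4 Cyp2a genes had higher values on high fat than on chow in both genotypes. The Cyp2a sum was 1421 RPKM in knockout livers on high fat against 944 RPKM on chow, and 1263 RPKM in flox livers on high fat against 984 RPKM on chow. Changes of Cyp2a5 with the diet were 0.65 in knockout and 0.31 in flox livers, and those of Cyp2a12 were 0.15 and 0.45. Cyp2e1 moved little, with -0.32 in knockout and 0.11 in flox livers. The Cyp2c, Cyp2d, Cyp2e, Cyp2f and Cyp2j sums had changes between -0.48 and -0.24 with the diet in knockout livers, of which the Cyp2c and Cyp2f changes turned slightly positive (0.05 each) after rescaling without the 50 most abundant genes.

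**Figure D5:**
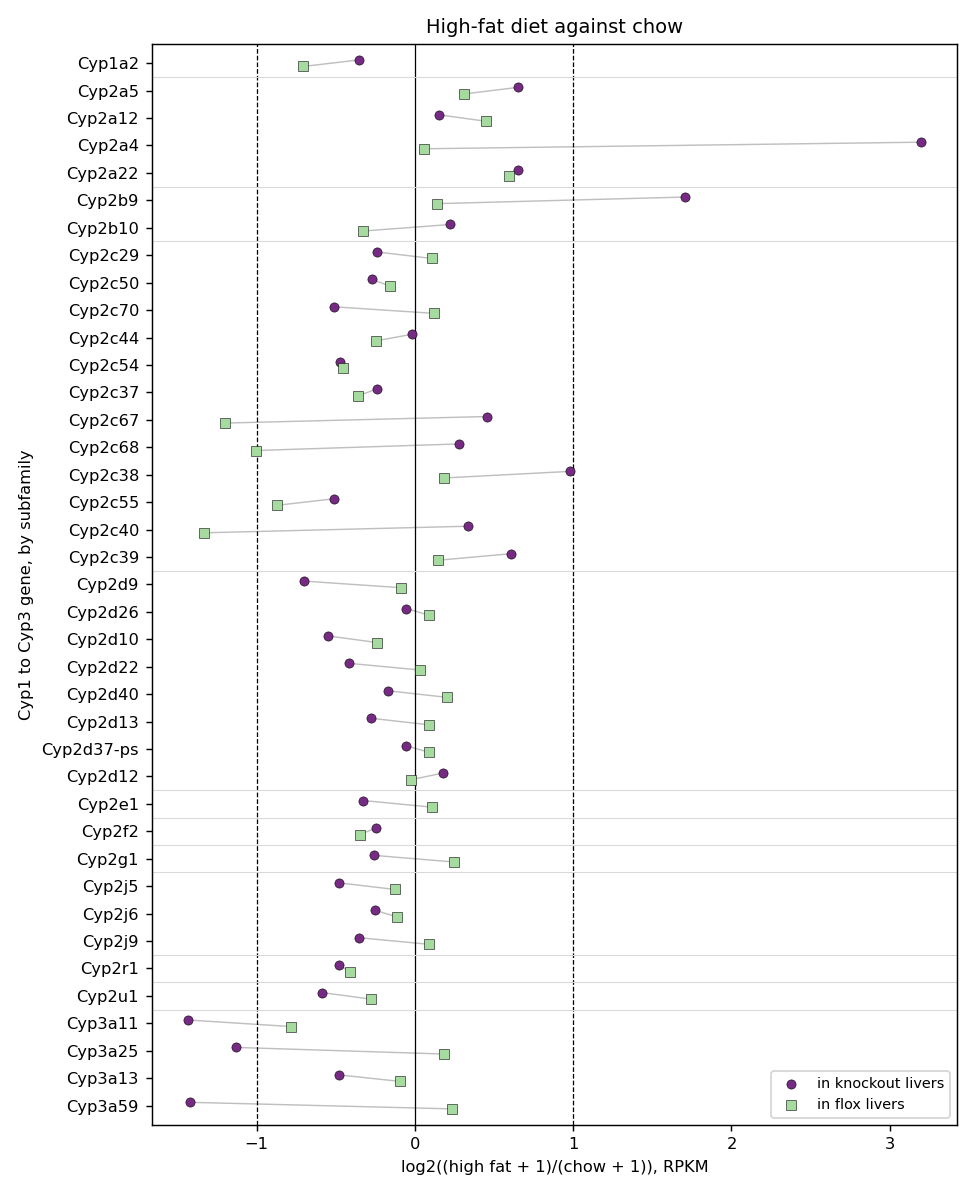
log2 change between the high-fat diet and chow for the 39 members, with circles for knockout livers and squares for flox livers and dashed lines at 2-fold. Cyp2a4 (3.20) and Cyp2b9 (1.71) lie right of the dashed line in knockout livers, and Cyp3a11, Cyp3a59 and Cyp3a25 lie left of it there, while in flox livers Cyp2c40, Cyp2c67 and Cyp2c68 do.

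Lists of members by known behaviour followed the single genes. Of 12 female-biased members, 6 passed the filter, of which 2 rose and 0 fell on high fat and 1 rose and 1 fell on chow (median changes 0.25 and -0.07). Of these 6, Cyp2c39 (0.53 on high fat) passed the filter only through knockout livers on high fat. The high-fat median therefore describes the 6 and is not evidence about the 12. Of 6 male-biased members, all past the filter, 0 rose and 2 fell on high fat and 0 rose and 1 fell on chow (median changes -0.80 and -0.82). Among 10 tested CAR and PXR targets in the family, 2 rose and 0 fell on high fat and 1 rose and 0 fell on chow, with medians of -0.20 and -0.32. The 2 were Cyp2a4 and Cyp2b9, which are also the 2 female-biased members that rose. On chow it was Cyp2a4 in both lists. For these lists and those below, 1.07% of all genes rose and 1.86% fell on high fat. On chow 0.252% of all genes rose and 1.37% fell. Cyp1a2 was the 1 aryl hydrocarbon receptor target of 3 past the filter.

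Genes that supply or control these enzymes changed by less than 2-fold, apart from Pgrmc2, Socs2 and Cish. Por, the P450 reductase, stood at 152 RPKM in knockout and 191 RPKM in flox livers on high fat, and at 144 RPKM in knockout and 161 RPKM in flox livers on chow. Of 9 measured electron donors and heme or membrane partners, 0 rose on either diet, 1 fell on high fat and 0 on chow (median changes -0.01 and -0.01). The gene that fell was Pgrmc2, a heme-binding membrane protein, at 10.4 RPKM in knockout and 22.8 RPKM in flox livers on high fat. Among 18 tested regulators 0 rose and 0 fell between genotypes on either diet, with medians of -0.36 on high fat and -0.07 on chow. The aryl hydrocarbon receptor gene Ahr had changes of 0.23 on high fat and 0.11 on chow, the PXR gene Nr1i2 of -0.35 and -0.02, and the CAR gene Nr1i3 of -0.61 and -0.18.

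In the list of the growth hormone axis, which sets sex-biased P450 patterns in mouse liver, 1 of 9 tested genes rose and 0 fell on each diet. That gene was Socs2, a feedback inhibitor of cytokine and growth hormone signalling, with 10.4 RPKM in knockout and 2.48 RPKM in flox livers on high fat and 13.0 RPKM in knockout and 3.48 RPKM in flox livers on chow. Cish, of the same inhibitor family, fell with the diet in knockout livers (-1.17). Of 17 tested CAR and PXR targets outside the P450 genes, 3 rose and 2 fell on high fat and 0 rose and 1 fell on chow (medians 0.02 and -0.02). The 3 that rose were the glutathione S-transferase genes Gstm3 (4.24), Gstm1 (1.77) and Gsta2 (1.66), and Ces2a (-2.72) and the organic anion transporter Slco1a4 (-1.42) fell. Of 3 tested aryl hydrocarbon receptor targets outside the P450 genes, Gsta1 (3.97) and Nqo1 (1.30) rose on high fat, Tiparp (-0.20) did not, and 0 rose on chow. Which regulators the rises in these lists go through was not tested.

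Pericentral P450 genes had lower median changes than other genes of the pericentral zone, the part of the lobule around the central vein. The 7 pericentral members had medians of -0.73 on high fat and -0.49 on chow, with 2 falls on each diet. The other 14 pericentral genes had medians of 0.30 and 0.32, with 0 rises and 0 falls. Glutamine synthetase, Glul, stood at 677 RPKM in knockout and 368 RPKM in flox livers on high fat, and at 517 RPKM in knockout and 390 RPKM in flox livers on chow. Periportal genes other than Cyp2f2 had 5 falls among 16 on high fat (median -0.45) and 0 on chow (median -0.17).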

How the data were processed

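Liver RNA sequencing was deposited as 4 tables, 1 per group, with 1 RPKM value per gene, per the file headers. The authors pooled 4 mice per cohort into 2 libraries, 8 in all, per the series' design text, and how these became 1 value is not given in the sources used here. Per the submitters' processing notes, TopHat2 2.0.7, Cuffdiff 2.1.1 and mm10 were used, their roles and sequence unstated. A table's name gave its group.

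Rows of repeated symbols (158 of 22923) were summed. Genes with at least 1 RPKM in a group were kept (10351), and a gene listed at 0 in a group was left out of comparisons with it. Changes are log2((a + 1)/(b + 1)), called at 2-fold, which understates changes of low genes. With 1 value per group there is no test, error or interval. Depth is unknown, and read numbers were not recovered. At the best of many trial step sizes, at most 24.1% of low values times transcript length lay within 0.05 of a whole step. Uniform values would give 10% at 1 fixed step, which is not a like comparison.

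All members are accounted for. Given with all 4 values were members past 2-fold with at least 5 RPKM, the most abundant of each subfamily (by name alone under 1 RPKM, by range for Cyp2g1), those with a mean of at least 50 RPKM and near copies of the first; from other lists, up to 4 genes past 2-fold with at least 5 RPKM in a group, by count alone for zonation and hepatocyte lists, plus Xbp1, Por, Ahr, Nr1i2 and Nr1i3. Ttr, Glul, Epcam, Tspan8 and the genes listed at 0 were added after their values were seen. Members and lists were chosen with earlier results of these data known. Sequences came from RefSeq (promoters, GRCm38.p6) and GENCODE M21 (transcripts). Python 3.11.15, numpy 2.4.6, pandas 2.3.3 and matplotlib 3.10.9 were used, and the calls were tested on simulated data.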

Additional observations from a re-analysis of the deposited data

How the results depend on the processing

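No paired analysis was possible because the files hold 1 value per group, and for the same reason no replicate could be left out. The 8 counts of members past 2-fold and 184 single changes were recomputed under 9 alternatives, and 0 of the called changes turned sign. With a 1.5-fold threshold the falls numbered 16 on high fat and 10 on chow between genotypes. With the diet they numbered 5 in knockout and 6 in flox livers. The rises numbered 3 on high fat and 2 on chow between genotypes, and 6 in knockout and 1 in flox livers with the diet. At that threshold 8.33% of all genes fell on high fat and 3.84% on chow. With the diet 4.70% fell in knockout and 1.68% in flox livers. Of all genes 3.20% rose on high fat and 1.09% on chow, and 2.68% in knockout and 1.23% in flox livers with the diet. A pseudocount of 5 RPKM left 1 rise and 4 falls on high fat and 0 rises and 4 falls on chow between genotypes. With the diet it left 1 rise and 3 falls in knockout and 1 fall in flox livers. Of all genes, 0.358% rose and 1.15% fell on high fat, and 0.0872% and 0.843% on chow. With the diet 0.290% and 0.533% did so in knockout and 0.107% and 0.281% in flox livers. A pseudocount of 0.1 RPKM gave 2 rises and 6 falls on high fat and 1 rise and 7 falls on chow. With the diet that pseudocount gave 4 rises and 3 falls in knockout and 4 falls in flox livers. Of all genes, 2.24% then rose and 2.55% fell on high fat, and 0.785% and 1.76% on chow. With the diet 1.83% and 1.12% did so in knockout and 0.591% and 0.610% in flox livers. A filter of 5 RPKM removed Cyp2b9 and left 1 rise on high fat between genotypes and 1 with the diet in knockout livers. With that filter 1.05% and 0.788% of all genes rose in these comparisons. After either rescaling (median ratio, or sums without the 50 most abundant genes), Cyp1a2 and Cyp2d40 lay inside 2-fold between genotypes on high fat, and Cyp2c38 passed it. Keeping zeros, dropping the filter or taking the highest of repeated rows changed no count. Rescaling without the 50 most abundant genes moved 157 of the 184 changes by more than 0.1. The unknown depth limits members under 5 RPKM most.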
